A study of Mus musculus with 28 samples.

Results

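The C/EBP family was followed at the transcript level and at its promoters while a mouse Pre-B line was converted by induced C/EBPα. Its members were fixed by name as Cebpa, Cebpb, Cebpd, Cebpe, Cebpg and Ddit3, which are 6 of the 55450 genes in the deposited RNA table, and 5 of the 6 had a mean of at least 0.1 TPM (an expression level that is divided by transcript length and by the total of its library) over the 12 libraries. Cebpd rose from 1h onwards, Cebpb rose after 12h and 48h, and Ddit3 rose after 48h. In the model without a replicate term, Cebpg and Cebpa had no change called on both scales used here. With that term, Cebpa was called lower on both scales at 48h and between 1h and 12h, and Cebpg between 1h and 12h. Cebpe was listed at 0 throughout. At 0h the Cebpa row, which includes the transgene, held 67.0% ± 4.12 (SD, n = 3) of the summed TPM of the family. After 48h Cebpb held the largest share, 38.5% ± 3.41 (SD, n = 3).

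C/EBP proteins bind DNA as pairs through a basic region and a leucine zipper, and the members recognise closely related sites. C/EBPα, C/EBPβ, C/EBPδ and C/EBPε activate transcription and are best known in blood for granulocyte, monocyte and macrophage genes, with C/EBPε acting late in neutrophil maturation. C/EBPγ lacks an activation domain and serves as a partner of other members, and the Ddit3 product, CHOP, pairs with them but has an altered basic region and is a known effector of the integrated stress response.

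All samples were C10 (CEBPalpha-ER ) cells, HAFTL derived Pre-B cells that carry a transgene joining rat C/EBPα to the ligand-binding part of the estrogen receptor, so that the uninduced samples carry it too. The RNA groups were 0h (uninduced), 1h, 12h and 48h of 100 nM β-estradiol with 10 nM IL-3 and CSF-1, each with 3 libraries labelled as biological replicates. GEO's labels name 1 treatment protocol for all samples, 0h included. The cells are 1 line, so the p-values measure the spread between its cultures. Promoter Capture Hi-C gave 1 merged list of contacts for each time point.

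The labels were checked against marker genes. The summed TPM of 12 pre-B genes was 306 to 346 in the 0h libraries and 30.0 to 41.9 after 48h, and that of 11 macrophage genes went from 9.01 to 12.2 at 0h to 755 to 887 after 48h. The sum of 10 granulocyte genes was at most 0.96 at 0h, 1.33 after 1h, 17.8 after 12h and 4.94 after 48h, with Mpo listed at 0 at every time point. Sums for T or NK, erythroid or megakaryocyte, and mast or basophil genes did not exceed 1.36 in any library. In these bulk samples fewer cells of a type and less RNA per cell cannot be told apart. Transcripts of 1 ribosomal RNA locus took 70.3% to 82.9% of the TPM, so levels of all other genes move together between libraries. The median log2 fold change of the 16415 genes tested was 0.59 after 1h, 0.34 after 12h and -0.18 after 48h on the deposited scale, and between 0.021 and 0.072 after median-of-ratios scaling (each library divided by its median ratio to the average library). Both scales are therefore given below. A gene is called when its adjusted p is under 0.05 (limma, Benjamini-Hochberg over all 16415 genes), and the words rose and fell are kept for calls on both.

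Of the 5 members tested, 3 were called higher and 0 lower at 1h on the deposited scale, against 24.1% of all genes called higher and 1.41% lower. After scaling, 1 was called higher, against 5.42% of all genes called higher and 4.92% lower. At 12h, 2 were called higher on either scale, against 22.3% of all genes as deposited and 16% after scaling, and 0 lower, against 7.82% and 14.5%. At 48h, 3 were called higher on either scale, against 15.9% and 24.5% of all genes, and 1 was called lower on the deposited scale only, where 27.2% of all genes were (22% after scaling). Between 1h and 12h, 2 were higher on either scale (6.98% and 11.3% of all genes) and 2 lower on the deposited scale only (15% of all genes, and 8.77% after scaling). Between 12h and 48h no member was called on both scales: Cebpg was lower as deposited, where 31.7% of all genes were called lower and 4.1% higher, and Ddit3 was higher after scaling, where 10.5% were called higher and 11.9% lower.

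**Figure D1:**
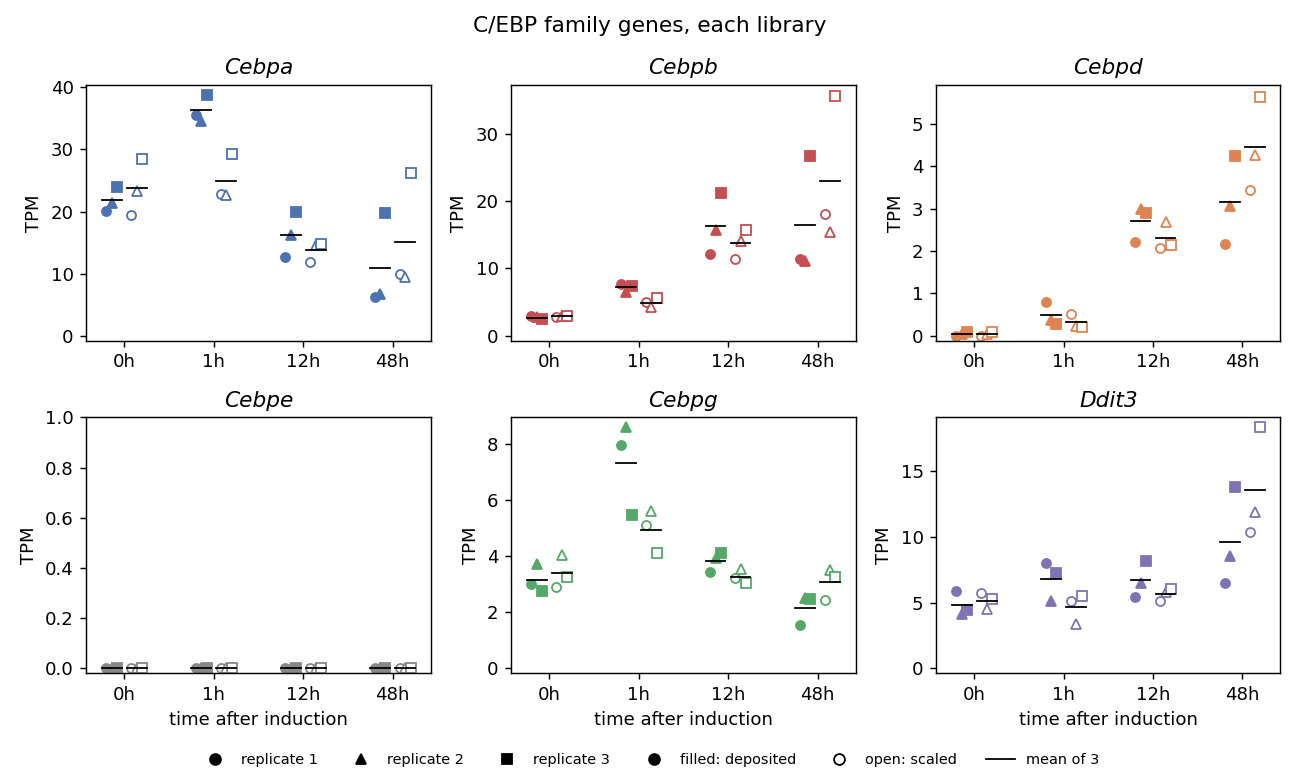
TPM (vertical axis) of each C/EBP family gene by time after induction, 1 marker shape per replicate, filled for deposited TPM and open after median-of-ratios scaling, with bars at the mean of 3 libraries. Cebpb and Cebpd stand higher at 12h and 48h than at 0h in every library, Cebpe is at 0, and 48h replicate 3 is the highest of its group for Cebpa, Cebpb, Cebpd and Ddit3.

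Cebpd (ENSMUSG00000071637, chromosome 16, 15887286 to 15891031, plus strand, GRCm38) encodes C/EBPδ, an activator known to respond early to cytokines. It stood at 0, 0.04 and 0.08 TPM in the 0h libraries, 0.80, 0.37 and 0.29 after 1h, 2.22, 3.00 and 2.90 after 12h, and 2.16, 3.06 and 4.24 after 48h. No 1h library overlapped the 0h libraries, and no 12h or 48h library overlapped the 1h libraries. Cebpd rose at every comparison with 0h. Its log2 fold change was 2.01 (SE 0.37, adjusted p = 0.00335, limma) after 1h, 4.35 (SE 0.37, adjusted p = 7.30e-06, limma) after 12h and 4.53 (SE 0.37, adjusted p = 1.72e-06, limma) after 48h. After scaling the values were 1.53, 4.08 and 4.98, with adjusted p of 0.0143, 5.76e-06 and 3.85e-07 (limma). It also rose from 1h to 12h, by 2.34 as deposited and 2.56 after scaling (adjusted p = 0.00104 and 0.000263, limma), whereas the step from 12h to 48h, 0.17 and 0.90, was not called on either scale (adjusted p = 0.761 and 0.0781, limma). With so little RNA at 0h the size of the change is set by the 0.1 TPM added before the logarithm: the 48h value was 1.97 with 1 added and 6.42 with 0.01 added, and with 1 added the 1h call was lost (0.50, adjusted p = 0.0763, limma). Spidr lies across Cebpd on the opposite strand, and the library kit named in the labels does not mark strand, so reads in the shared part cannot be assigned between them.

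Cebpb (ENSMUSG00000056501, chromosome 2, 167688915 to 167690418, plus strand) encodes C/EBPβ, the member most tied to macrophage activation and to inflammatory gene induction. Its libraries stood at 2.94, 2.72 and 2.45 TPM at 0h, 7.73, 6.43 and 7.41 after 1h, 12.1, 15.7 and 21.2 after 12h, and 11.4, 11.1 and 26.7 after 48h. The time points up to 12h did not overlap, while 12h and 48h did. Cebpb rose by 2.52 on the log2 scale after 12h (SE 0.31, adjusted p = 0.000127, limma) and 2.43 after 48h (SE 0.31, adjusted p = 6.58e-05, limma), and by 2.19 and 2.84 after scaling (adjusted p = 0.000113 and 5.57e-06, limma). The 1h value was called as deposited (1.38, SE 0.31, adjusted p = 0.00961, limma) but not after scaling (0.73, adjusted p = 0.114, limma), although the 3 libraries after 1h stayed above those at 0h. From 1h to 12h Cebpb rose by 1.14 as deposited and 1.46 after scaling (adjusted p = 0.0235 and 0.00257, limma). That deposited-scale call was lost without any 1 of 5 of the 6 libraries compared, where the value lay between 0.94 and 1.19. From 12h to 48h the 2 scales gave opposite signs, -0.087 and 0.66, neither called (adjusted p = 0.874 and 0.106, limma). Without 48h replicate 3, the highest library, the 48h value against 0h was 2.02 (adjusted p = 4.61e-05, limma).

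Tmem189 overlaps Cebpb on the opposite strand and starts in the same fragment, so unstranded reads of the overlap could belong to either gene. It rose at every time point on both scales, from 2.53 ± 0.621 TPM at 0h to 6.56 ± 0.917 after 1h, 11.8 ± 2.13 after 12h and 13.0 ± 1.87 after 48h (mean ± SD, n = 3). The part of this that comes from shared reads was not tested.

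The promoters of Cebpa, Cebpb, Cebpg and Ddit3 were found in the RefSeq promoter table (GRCm38.p6), 4 of the 6 members. The 250 bases before each start were searched on both strands for 6 motifs: the C/EBP palindrome TTGCGCAA, held by 0.16% of the 32851 promoters of this length, the wider C/EBP form TTGCNNAA that includes it (9.56%), the C/EBP-ATF composite TTGCATCA (0.79%), the CRE TGACGTCA (1.55%), the STAT form TTCNNNGAA (7.02%) and the CCAAT box (33.85%). In the Cebpb promoter, shown because Cebpb is the abundant member that rose, none of the 6 was found in these letters (chr2:167688665-167688914, plus strand, 81.6% G or C).
Cebpb promoter: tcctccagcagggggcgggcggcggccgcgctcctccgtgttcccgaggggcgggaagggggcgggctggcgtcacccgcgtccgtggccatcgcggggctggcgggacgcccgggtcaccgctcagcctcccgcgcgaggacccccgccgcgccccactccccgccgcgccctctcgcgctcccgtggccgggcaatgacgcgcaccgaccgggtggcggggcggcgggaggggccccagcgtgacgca

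The Cebpa row (ENSMUSG00000034957, chromosome 7, 35119293 to 35121928, plus strand) does not separate the transgene, which is of rat origin, from the endogenous mouse gene. From bases that differ between rat and mouse, the study reported that the mouse gene was not expressed over the time course. C/EBPα is the member that was supplied, and is known as the factor that opens the granulocyte and monocyte programme. Its libraries were at 20.1, 21.4 and 23.9 TPM at 0h, 35.6, 34.6 and 38.8 after 1h, 12.7, 16.2 and 20 after 12h, and 6.20, 6.74 and 19.7 after 48h. All 1h libraries lay above all 0h libraries as deposited but overlapped them after scaling, and all 12h libraries lay below the 0h libraries on both scales. No comparison of Cebpa was called on both in the model without a replicate term. The lower value at 48h, -1.20 (SE 0.36, adjusted p = 0.0173, limma), became -0.80 after scaling (adjusted p = 0.0705, limma), and the drop between 1h and 12h, -1.17 (adjusted p = 0.0367, limma), became -0.85 (adjusted p = 0.102, limma). The 48h call depended on single libraries. It was lost without 48h replicate 1 (-0.91, adjusted p = 0.0761, limma), 48h replicate 2 (-0.97, adjusted p = 0.0771, limma) or 0h replicate 3 (-1.14, adjusted p = 0.0583, limma). Without 48h replicate 3, the highest library, the value was -1.74 (adjusted p = 4.11e-05, limma) against 0h and -1.30 (adjusted p = 0.000499, limma) against 12h. The Cebpa promoter (chr7:35119043-35119292, plus strand, 66.4% G or C), shown as that of the mouse gene and not of the transgene, held none of the 6 motifs in their exact letters. Sites that differ from these forms by a base were not searched for.
Cebpa promoter: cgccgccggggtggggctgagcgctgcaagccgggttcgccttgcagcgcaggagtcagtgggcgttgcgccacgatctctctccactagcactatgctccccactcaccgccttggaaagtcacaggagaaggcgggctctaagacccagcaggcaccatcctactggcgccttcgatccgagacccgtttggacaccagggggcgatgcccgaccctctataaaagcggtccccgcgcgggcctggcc

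Cebpg (ENSMUSG00000056216, chromosome 7, 35046422 to 35056573, minus strand) encodes C/EBPγ, and its 5′ end lies 62.7 kb from that of Cebpa. Its libraries were at 3.00, 3.73 and 2.75 TPM at 0h, 7.97, 8.61 and 5.46 after 1h, 3.44, 3.95 and 4.11 after 12h, and 1.53, 2.51 and 2.46 after 48h. Cebpg was the only member whose highest mean was at 1h on both scales apart from the Cebpa row. All 1h libraries were above all 0h libraries on either scale, yet the log2 fold change of 1.18 (SE 0.24, adjusted p = 0.00571, limma) was 0.53 after scaling and no longer called (adjusted p = 0.111, limma). The later values followed the scale of the libraries: 0.28 and -0.049 after 12h, and -0.55 and -0.15 after 48h, none of them called (adjusted p between 0.0913 and 0.885, limma). The step from 1h to 12h was -0.90 as deposited (adjusted p = 0.0209, limma) and -0.58 after scaling (adjusted p = 0.0556, limma), and from 12h to 48h it was -0.82 (adjusted p = 0.0200, limma) and -0.10 (adjusted p = 0.767, limma). The Cebpg promoter (chr7:35056567-35056816, minus strand, 70.8% G or C) held 2 CCAAT boxes, printed in capitals and read as ATTGG because both lie on the opposite strand, 89 to 85 and 28 to 24 bases before the start.
Cebpg promoter: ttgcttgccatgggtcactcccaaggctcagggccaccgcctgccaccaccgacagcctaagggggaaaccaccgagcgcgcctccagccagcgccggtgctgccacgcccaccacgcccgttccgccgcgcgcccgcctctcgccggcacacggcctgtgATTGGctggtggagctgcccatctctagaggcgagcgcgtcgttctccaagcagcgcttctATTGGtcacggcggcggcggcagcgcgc

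Ddit3 (ENSMUSG00000025408, chromosome 10, 127290774 to 127296288, plus strand) encodes CHOP. Its libraries were at 5.90, 4.13 and 4.40 TPM at 0h, 7.98, 5.10 and 7.28 after 1h, 5.45, 6.46 and 8.18 after 12h, and 6.49, 8.54 and 13.8 after 48h. Only at 48h did every library lie above the 0h libraries. Ddit3 rose at 48h by 0.93 on the log2 scale (SE 0.29, adjusted p = 0.0206, limma) and by 1.34 after scaling (SE 0.24, adjusted p = 0.000706, limma). The call on the deposited scale was lost without 0h replicate 2 (0.83, adjusted p = 0.0726, limma), without 0h replicate 3 (0.88, adjusted p = 0.0636, limma) and without 48h replicate 3 (0.64, adjusted p = 0.0757, limma). At 1h the values were 0.48 and -0.17 and at 12h 0.47 and 0.14 on the 2 scales, with no call (adjusted p between 0.239 and 0.717, limma). From 12h to 48h the deposited value of 0.46 was not called (adjusted p = 0.242, limma) and the scaled value of 1.20 was (adjusted p = 0.00364, limma).

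The table holds a second Ddit3 row (ENSMUSG00000116429, chromosome 10, 127290829 to 127293753) that lies within the first gene. It was listed at 0 in 11 libraries and at 13.9 TPM in 1h replicate 2, where the first row, at 5.10 TPM, was the lowest of its group, so reads of 1 gene may be divided between the rows there. Summing both rows, an alternative chosen after seeing the data, put 1h replicate 2 at 19.0 TPM and gave a log2 fold change of 1.11 at 1h (adjusted p = 0.0472, limma), while the 48h value stayed at 0.93 with an adjusted p of 0.0620 (limma). Mars overlaps Ddit3 on the opposite strand. The Ddit3 promoter (chr10:127290543-127290792, plus strand, 64.8% G or C) held 1 CCAAT box, again on the opposite strand and in capitals, 77 to 73 bases before the start.
Ddit3 promoter: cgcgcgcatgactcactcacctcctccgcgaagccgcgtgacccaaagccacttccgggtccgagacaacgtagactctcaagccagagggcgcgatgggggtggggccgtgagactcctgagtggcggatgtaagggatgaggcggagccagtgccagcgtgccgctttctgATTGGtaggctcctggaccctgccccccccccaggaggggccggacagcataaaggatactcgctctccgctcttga

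Cebpe (ENSMUSG00000052435, chromosome 14, 54710360 to 54712174, minus strand) encodes C/EBPε and was listed at 0 TPM in all 12 libraries, so it was not tested. Cebpz, which shares the name but encodes a ribosome assembly protein with no leucine zipper, stood at 5.41 ± 0.587 TPM at 0h, 7.41 ± 0.508 after 1h, 4.45 ± 0.408 after 12h and 2.02 ± 0.285 after 48h (mean ± SD, n = 3). Cebpz fell at 48h by 1.38 on the log2 scale (adjusted p = 4.23e-05, limma), and its scaled value was -0.98 (adjusted p = 0.000649, limma), the opposite direction to Cebpb, Cebpd and Ddit3.

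**Figure D2:**
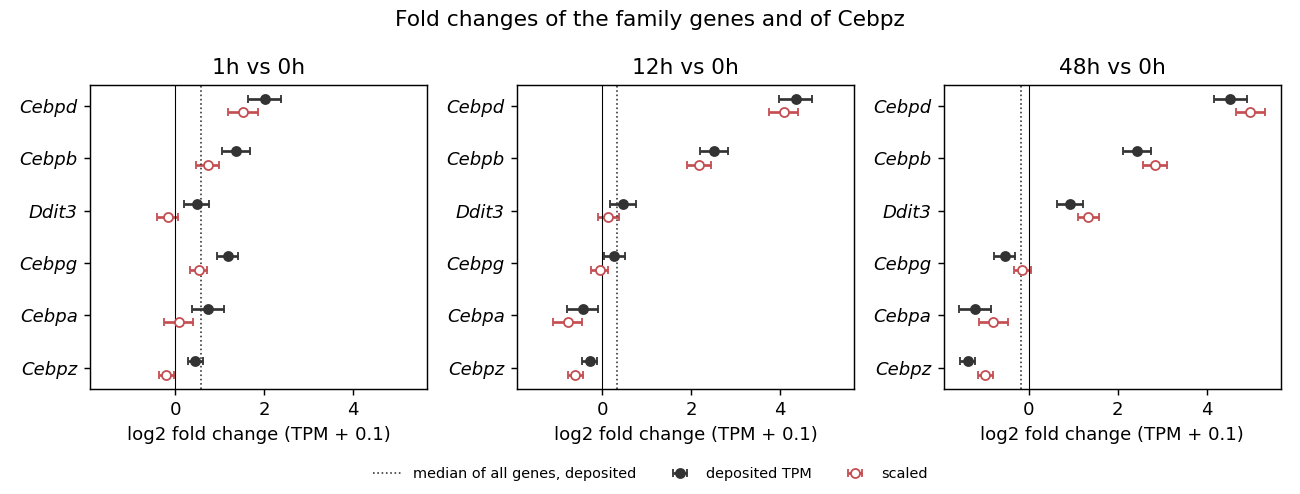
Log2 fold change against 0h (horizontal axis, log2 of TPM + 0.1) of 5 C/EBP family genes and Cebpz at 1h, 12h and 48h, black for deposited TPM and red open circles after scaling, with bars of 1 SE from limma and a dotted line at the deposited median of all genes. Cebpd and Cebpb lie right of 0 on both scales at 12h and 48h, and Ddit3 does at 48h, while Cebpg and Ddit3 lie on both sides of 0 at 1h or 12h depending on the scale.

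Within a library the shares of the members do not depend on the scale between libraries. The family sum left out the second Ddit3 row, which was above 0 only in 1h replicate 2. It held 13.9 TPM there, beside a family sum of 55.1 TPM. Counting it would raise the Ddit3 share of that library and lower those of the Cebpa row, Cebpb, Cebpd and Cebpg. The Cebpa row held 62.9% to 71.2% of the family TPM at 0h, 59.2% to 65.5% after 1h, 35.3% to 35.8% after 12h and 21.1% to 29.4% after 48h. Cebpb held 7.29% to 9.20%, 11.7% to 12.9%, 33.8% to 37.6% and 34.6% to 41.0%. In listed TPM Cebpb thus matched the Cebpa row after 12h and passed it after 48h. By the study's account the Cebpa row holds reads of the rat transgene, and reads were mapped to the mouse genome. How far the TPM of that row can be compared with that of a mouse gene was not tested. The ratio of Cebpb to the Cebpa row was 0.10 to 0.15 at 0h, 0.19 to 0.22 after 1h, 0.96 to 1.06 after 12h and 1.36 to 1.84 after 48h, with no overlap between time points. In 48h replicate 3, where both genes were highest, the ratio was 1.36, the lowest of its group. Cebpd stayed a minor member, with 0.121% ± 0.119 of the pool at 0h and 7.90% ± 1.63 after 48h (mean ± SD, n = 3). Ddit3 held 14.8% ± 3.16 at 0h and 23.6% ± 3.09 after 48h (mean ± SD, n = 3), with no overlap between the libraries of these time points. Cebpg held 9.74% ± 1.76 and 5.69% ± 2.102 (mean ± SD, n = 3).

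**Figure D3:**
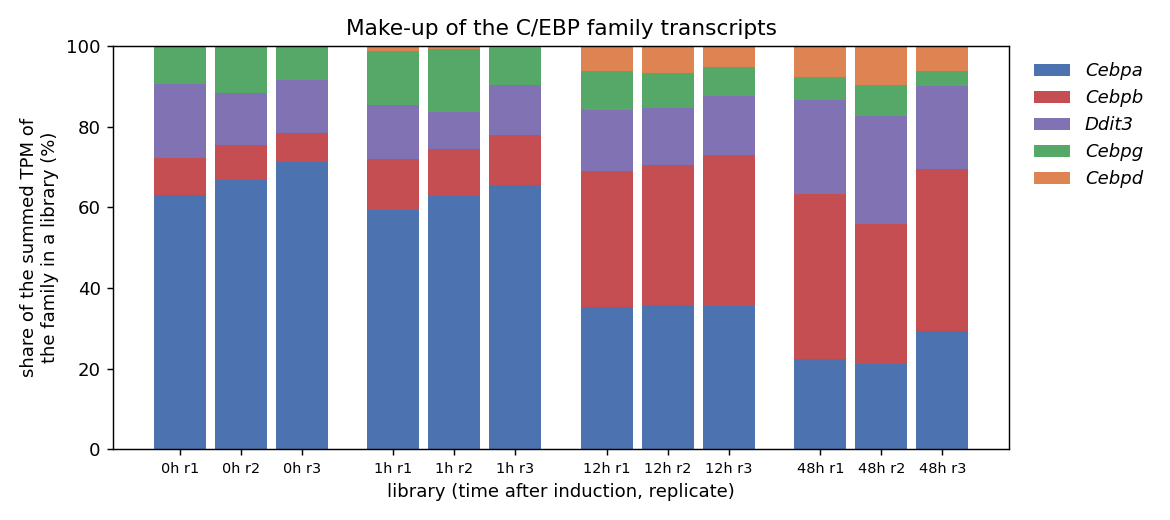
Share of each C/EBP family gene (colours) in the summed TPM of the family (vertical axis, %) in each library (horizontal axis, time and replicate r1 to r3). The second Ddit3 row is left out of the sum. The Cebpa row shrinks from 62.9% to 71.2% at 0h to 21.1% to 29.4% at 48h, and Cebpb grows from 7.29% to 9.20% to 34.6% to 41.0%.

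Among all tested genes, ordered by mean TPM at a time point, the Cebpa row was above 95.9% of them at 0h and 93.6% after 48h. Cebpb moved from above 68.8% to above 95.6%, Cebpd from above 9.70% to above 77.7%, and Ddit3 from above 80.8% to above 92.7%. Cebpg stayed within 70.1% and 81.2% over the 4 time points. At 48h the order of mean TPM was Cebpb (16.4), Cebpa (10.9), Ddit3 (9.61), Cebpd (3.15) and Cebpg (2.17), and in that order the libraries of neighbours overlapped except for those of Ddit3 and Cebpd. Ddit3 lay above the Cebpa row in replicates 1 and 2, and without replicate 3 their means were 7.52 and 6.47 TPM, the reverse order. At 0h it was Cebpa (21.8), Ddit3 (4.81), Cebpg (3.16), Cebpb (2.70) and Cebpd (0.040), where the Cebpa row lay above every Ddit3 library, Cebpd below every Cebpb library, and Cebpg overlapped Cebpb but not Ddit3.

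The proteins that pair with C/EBP factors through the leucine zipper, and related bZIP factors, were listed as 24 genes, of which 20 were tested. At 48h, 8 of the 20 rose and 3 fell (40% and 15%), where 15.9% of all genes were called higher on both scales and 21.9% lower. At 12h, 8 rose and 2 fell (40% and 10%, against 16% and 7.81% of all genes), and at 1h 3 rose and 2 fell (15% and 10%, against 5.42% and 1.37%). The median of the list at 48h was 0.40 as deposited and 0.81 after scaling, against -0.18 and 0.072 over all genes. The largest increases were those of Batf2, from 0 in all 0h libraries to 4.94 ± 0.889 TPM at 48h, Fosl2, from 0.0133 ± 0.0115 to 4.26 ± 1.10, and Nfil3, a repressor, from 0 in all 0h libraries to 1.70 ± 0.581 (mean ± SD, n = 3). Batf2 was at 0 to 0.07 TPM on average before 48h, whereas Fosl2 peaked at 12h with 7.49 ± 1.06 TPM. Batf2, Fosl2 and Nfil3 were under 0.1 TPM at 0h. They passed the filter, a mean over all 12 libraries, only through later time points. The shares of this list, and those of all genes, are therefore of tested genes only. Among genes with a mean of at least 1 TPM, Fosb and Atf4 fell. Fosb went from 10.7 ± 1.03 TPM at 0h to 0.917 ± 0.129 after 1h, 0.163 ± 0.0231 after 12h and 1.53 ± 0.400 after 48h, and Atf4, the stress response activator that drives Ddit3, from 45.7 ± 4.22 to 9.20 ± 0.705 after 48h (mean ± SD, n = 3).

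Regulators of C/EBP transcription or protein, including receptors whose signals induce Cebpb and Cebpd, were listed as 28 genes with 24 tested. At 1h 10 rose and 0 fell, so that 41.7% were called higher, against 5.42% of all genes. At 12h 18 rose and 3 fell (75% and 12.5%, against 16% and 7.81%), and at 48h 17 rose and 4 fell (70.8% and 16.7%, against 15.9% and 21.9%). The 48h median was 1.60 as deposited and 2.01 after scaling, against -0.18 and 0.072 over all genes. Socs3, a feedback inhibitor of the IL-6 and STAT3 pathway, rose from 0.070 ± 0.0436 TPM at 0h to 2.71 ± 1.15 after 1h and 3.91 ± 1.30 after 48h. Socs3 also passed the filter only through time points after 0h, so the shares of this list are again of tested genes only. Csf2rb, the receptor chain shared by IL-3, IL-5 and GM-CSF, rose from 2.31 ± 0.637 TPM to 32.9 ± 1.08 after 1h and 44.8 ± 14.6 after 48h, and Csf1r, the CSF-1 receptor, from 0.277 ± 0.146 to 18.7 ± 4.16 (mean ± SD, n = 3). Trib2, which targets C/EBPα for degradation, fell from 5.46 ± 0.652 to 0.98 ± 0.0954 TPM. Trib1, which acts in the same way, and Cop1, the ubiquitin ligase that both recruit, moved in the other direction, and are named here after their values were seen. Trib1 rose at every time point, from a mean of 3.00 TPM at 0h to 14.4 after 1h, 10.9 after 12h and 13.8 after 48h (48h log2 fold change 2.17 as deposited and 2.58 after scaling). Cop1 rose at 12h and 48h, from a mean of 7.28 TPM to 20.4 and 12.1. Cdk4 fell from 49.1 ± 0.961 to 6.61 ± 2.04 and Cdk2 from 5.85 ± 0.932 to 1.22 ± 0.317 (mean ± SD, n = 3). Both are cell cycle kinases that interact with C/EBPα.

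Myeloid genes with a known C/EBP site numbered 32, and 21 were tested. At 1h 8 rose (38.1%, against 5.42% of all genes), after 12h 18 (85.7%, against 16%) and after 48h 16 (76.2%, against 15.9%), and 0 were called lower on either scale at any time point. The 48h median was 5.16 as deposited and 5.67 after scaling, and 16 were also called higher without 48h replicate 3, an alternative chosen after seeing the data. Mmp12, a macrophage elastase, went from 0.00667 ± 0.0115 to 491 ± 82.9 TPM, Il1rn, the IL-1 receptor antagonist, from 0.0333 ± 0.0416 to 143 ± 13.6, and Cd14, the lipopolysaccharide co-receptor, from 0 in all 0h libraries to 46.7 ± 13.3 (mean ± SD, n = 3). Cd14 was at 1.89 ± 0.312 TPM by 1h. The 14 secondary granule genes known as C/EBPε targets had 8 tested members, with Cebpe listed at 0 throughout. Of the 8, 4 rose at 1h (50%, against 5.42% of all genes). At each later time 7 rose (87.5%, against 16% of all genes at 12h and 15.9% at 48h). Those with the largest increases were Hp, a haemoglobin scavenger, with 45.6 ± 8.71 TPM after 12h and 38.02 ± 10.1 after 48h, Mmp8, a neutrophil collagenase, with 6.93 ± 1.121 and 35.9 ± 7.55, and Lyz2, the myeloid lysozyme, with 207 ± 42.0 and 109 ± 13.6 (mean ± SD, n = 3). Hp and Mmp8 were listed at 0 in the 0h libraries. Like Cd14, they passed the filter, a mean over all 12 libraries, only through time points after 0h. The shares of both lists are therefore of tested genes only, not of all genes listed. Of the granule proteins that define neutrophils, Ltf and Ngp stayed under 0.1 TPM over the 12 libraries and were not tested. Of the 10 granulocyte markers 4 were tested, and 0 were called lower on either scale at any time point. At 1h 0 of the 4 rose, at 12h 4 (100%, against 16% of all genes) and at 48h 2 (50%, against 15.9%).

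The integrated stress response list, to which Ddit3 belongs, held 26 names, 25 in the table and 24 tested. At 48h, 7 rose and 8 fell (29.2% and 33.3%, against 15.9% and 21.9% of all genes), with a median of -0.18 as deposited and 0.21 after scaling. At 12h, 8 rose and 3 fell (33.3% and 12.5%, against 16% and 7.81%), and at 1h 3 rose and 1 fell (12.5% and 4.17%, against 5.42% and 1.37%). The largest increases were in Eif2ak2, the kinase PKR, from 1.75 ± 0.361 to 15.4 ± 2.36 TPM, Atf3, from 1.67 ± 0.682 to 12.7 ± 2.02, and Bcl2l11, which encodes the cell death protein BIM, from 1.63 ± 0.215 to 8.17 ± 1.04 (mean ± SD, n = 3). The largest decreases were in Cth, of cysteine synthesis, from 4.94 ± 0.756 to 0.157 ± 0.0850 TPM, Psat1, of serine synthesis, from 38.5 ± 8.94 to 1.87 ± 0.386, and Trib3, from 4.88 ± 0.210 to 0.330 ± 0.135 (mean ± SD, n = 3). Psat1 and Trib3 were at 23.5 ± 3.34 and 4.79 ± 2.58 TPM at 12h. Ddit3 thus moved in the opposite direction to Atf4, Trib3 and Psat1 at 48h.

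**Figure D4:**
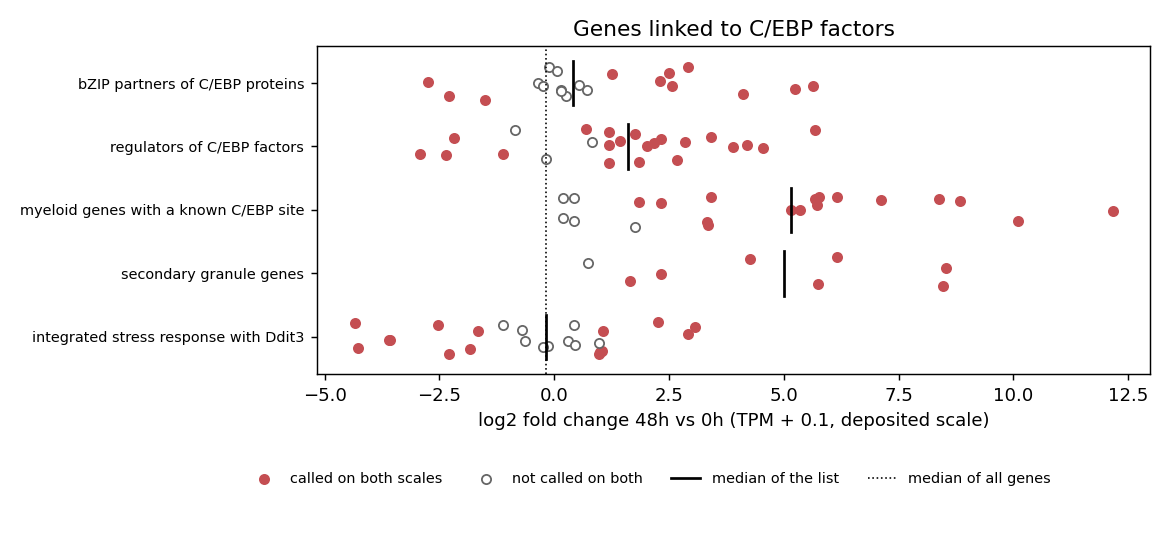
Log2 fold change at 48h against 0h (horizontal axis, deposited scale, log2 of TPM + 0.1) of every tested gene in 5 lists linked to C/EBP factors (rows), red where called on both scales and open otherwise, with the median of each list (black bar) and of all genes (dotted line). The myeloid list is centred at 5.16 and the stress response list at -0.18, the median of all genes.

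Genes whose pattern over the 12 libraries was most like a member's were taken by Pearson correlation of scaled log2 TPM among 8365 genes with a mean of at least 1 TPM. The 12 points share 4 time points, so the values describe likeness only. For Cebpb these were Ftl1 (r = 0.99), Slc2a6 (0.98) and Efhd2 (0.98), for Cebpd Arhgap26 (0.99), Sat1 (0.99) and Vsir (0.99), and for Ddit3 H2-Q4 (0.97), Dazap2 (0.97) and H2-D1 (0.96). For the Cebpa row they were Ddx51 (0.94), Polr2l (0.93) and Rpl31 (0.93), and for Cebpg Sptssa (0.90), Nfya (0.88) and Rptor (0.87). Vsir, an immune checkpoint receptor, went from 0.0133 TPM at 0h to 42.9 after 12h and 36.3 after 48h on average. Sptssa had the 1h maximum of Cebpg, with means of 2.08, 7.13, 1.75 and 0.837 TPM in order of time.

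Promoter Capture Hi-C finds restriction fragments that lie close to a captured promoter fragment, the bait. Each list came from merged replicates, so the numbers of contacts have no replicate error, and a contact absent from a list may have missed the calling threshold. The 0h list gives a CHiCAGO score, a measure of confidence of at least 5, and the later lists give whole numbers of unnamed unit taken as read pairs, so their values were not compared between 0h and later times. The median number of contacts over the 18175 baits was 4 at each time point, and the lists held 131598 (12h) to 144072 (48h) contacts. The fragments with a start of a member had 54 contacts in all at 0h, 64 after 1h, 64 after 12h and 44 after 48h.

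The Cebpb bait (chr2:167681776-167692188), which also holds the starts of Tmem189 and A530013C23Rik, had 18 contacts at 0h, 27 after 1h, 17 after 12h and 8 after 48h, more than 84.1%, 91.7%, 84.3% and 63.5% of baits. The number was thus lowest at 48h, when Cebpb was at 16.4 ± 8.96 TPM (SD, n = 3). Of its 37 partner fragments, 36 lay at higher coordinates, up to 321.3 kb away between midpoints, and 5 were present at all 4 time points. These were the bait of Ube2v1 (at -56.7 kb, on the other side), 3 adjacent fragments at 201.7 to 216.4 kb (chr2:167883722-167909553) with no gene start, and the bait of Ptpn1 at 244.8 kb. The 3 adjacent fragments had the highest 0h scores of the promoter, 18.6, 21 and 11.7, and in the same order 27, 30 and 21 read pairs after 1h, 14, 24 and 12 after 12h and 18, 25 and 10 after 48h. At 12h, 3 adjacent fragments at 68.9 to 72.6 kb and 3 at 99.9 to 104.8 kb were listed, none of which was listed at 0h. Of these, the fragment at 72.6 kb was also listed after 1h and 48h, and that at 103.4 kb after 1h. The others were listed at 12h only. Of the 18 contacts at 0h, 15 were listed after 1h (83.3%) and 6 after 48h (33.3%), against 57.6% and 55.9% of all 0h contacts. When a partner within 10 kb counted as the same, the numbers were 18 and 12. The share of all contacts under that wider rule was not computed. Ptpn1, a tyrosine phosphatase, rose at every time point on both scales, from 4.42 ± 1.07 TPM at 0h to 14.9 ± 2.74, 23.1 ± 1.91 and 11.5 ± 2.15, while Ube2v1 was called at none and stood at 11.3 ± 1.37, 14.3 ± 2.72, 12.8 ± 1.06 and 9.30 ± 1.21 (mean ± SD, n = 3).

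The Cebpg bait (chr7:35055123-35064773) had 4 contacts at 0h, 3 after 1h, 13 after 12h and 8 after 48h, more than 46%, 38%, 77.6% and 63.5% of baits. A further fragment that holds a Cebpg start had 1 contact, at 1h. Contacts past Cebpa were listed at all 4 time points: 1 fragment 113.7 to 121.9 kb beyond the start of Cebpa was listed at 0h and 12h, and 2 baits further on after 1h. A run of 3 adjacent fragments (chr7:35148162-35153305), 28.9 to 34.0 kb beyond the start of Cebpa, and 1 fragment (chr7:35173319-35174435), 54.0 to 55.1 kb beyond it, were listed at both 12h and 48h and at neither 0h nor 1h. The run had 19, 21 and 18 read pairs after 12h and 31, 26 and 30 after 48h. The 3 contacts of the bait at 1h were all with other baits, the nearest 335.6 kb away, and none was listed at another time point. At 12h Cebpg stood at 3.83 ± 0.350 TPM and at 48h at 2.17 ± 0.552 (mean ± SD, n = 3). The Cebpa bait itself (chr7:35113445-35121370) had 0, 1, 0 and 0 contacts in order of time, the one after 1h with a fragment 297.1 kb away, so the fragments in contact with Cebpg after 12h and 48h were not listed with Cebpa.

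The Ddit3 bait (chr10:127285664-127291001), shared with Mbd6, Gm20492 and Gm4189, had 10 contacts at 0h, 14 after 1h, 10 after 12h and 4 after 48h, more than 70.2%, 78.6%, 70.5% and 44.3% of baits. As for Cebpb, the number was lowest at 48h, where Ddit3 had risen and the whole list was longest. The bait of Os9, which encodes a lectin of endoplasmic reticulum quality control, and its neighbour fragment, at -167.5 and -164.8 kb, were listed at all 4 time points, and 16 of the 24 partners at 1 time point only. Os9 rose from 4.48 ± 0.267 TPM at 0h to 10.2 ± 2.27 after 12h and 8.83 ± 1.76 after 48h, and Mbd6, which starts in the Ddit3 fragment, rose after 12h, from 2.52 ± 0.352 to 5.65 ± 0.755 TPM (mean ± SD, n = 3).

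Cebpe had many contacts although its transcript was listed at 0. Its bait (chr14:54711076-54714562) had 21, 17, 22 and 22 contacts in order of time, more than 83.0% to 89.6% of baits, and 8 of its 36 partners were present at all 4 time points. Of the 21 contacts at 0h, 15 were also listed after 48h, 71.4%, against 55.9% of all 0h contacts in the series. After 1h and 12h the shares were 57.1% and 52.4%, close to the 57.6% and 53.2% of all 0h contacts. After 48h the other members with contacts at 0h kept 33.3% (Cebpb, with only 8 contacts at 48h) and 20% (Ddit3, 2 of 10). Cebpg kept 75% (3 of 4) and Cebpd 100% (1 of 1). With a partner within 10 kb counted as the same, the 48h values were 85.7% for Cebpe and 66.7% for Cebpb. The share of all contacts under that wider rule was not computed. The 8 included 4 adjacent fragments from the bait of Slc7a8 at 65.1 kb to 77.4 kb, and the baits of Acin1, Homez with Ppp1r3e, Bcl2l2 and Ngdn. Slc7a8 was itself listed at 0 TPM, whereas Acin1 fell from 20.6 ± 2.16 to 10.3 ± 1.15 TPM and Ngdn from 4.53 ± 1.77 to 1.68 ± 0.197 at 48h (mean ± SD, n = 3). The fragment with the Cebpd starts (chr16:15885072-15889286) was not a bait in any list, so its contacts were seen only from other baits: that of Spidr, 260.2 kb away, at all 4 time points, and a second bait with no annotated start, 163.3 kb away, at 12h and 48h. Spidr rose from 1.35 ± 0.397 TPM at 0h to 4.53 ± 0.499 after 48h (mean ± SD, n = 3).

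**Figure D5:**
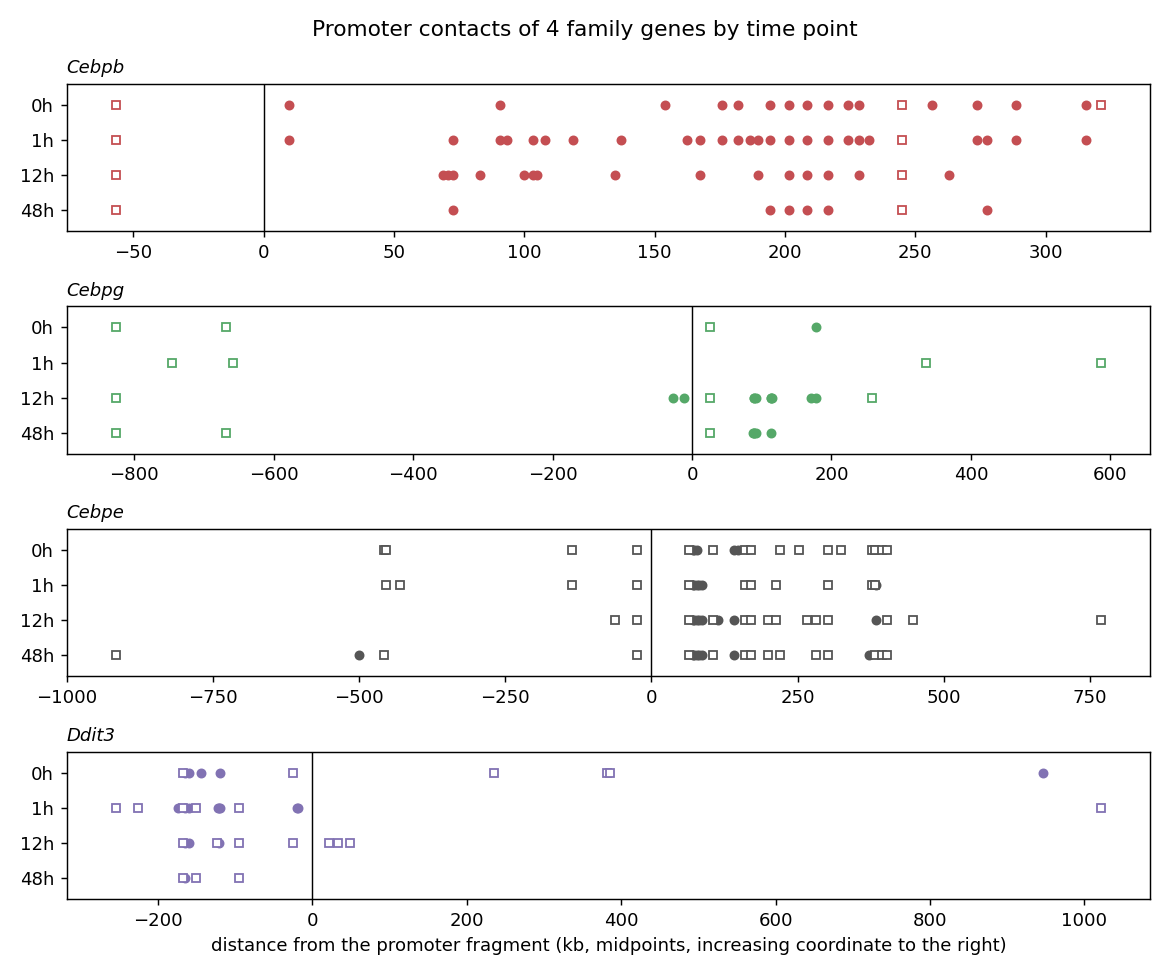
Distance in kb (horizontal axis, midpoint to midpoint, positive towards higher coordinates) from the promoter fragment of Cebpb, Cebpg, Cebpe and Ddit3 to each contact at each time point (rows), filled circles for fragments that are no bait and open squares for baits. The Cebpb contacts at 201.7 to 216.4 kb recur in all 4 rows, and the Cebpg contacts near 90 kb appear at 12h and 48h only.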

How the data were processed

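RNA-seq was measured in 12 libraries and Promoter Capture Hi-C at 4 time points. The authors trimmed reads with Trim Galore 0.6.2, mapped them to mm10 with HISAT2 2.1.0 and deposited TPM estimated with RSEM. TPM keep no record of depth, and the read numbers that the study lists were not used here. For each time point the authors merged 2 capture replicates processed with HiCUP, and deposited the CHiCAGO score (0h) or whole-number counts (1h, 12h, 48h) of each contact.

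TPM were tested with limma 3.58.1 (R 4.3.3) on log2(TPM + 0.1), in 1 model of 12 libraries with a mean-variance trend, for the 16415 genes averaging 0.1 TPM or more, and again after median-of-ratios scaling over 11246 genes above 0 in all libraries. The model was tested on simulated data. Fragments were matched to starts in GENCODE M21, and pairs listed in both directions were counted once. Named genes were the members, Cebpz, up to 3 increases and 3 decreases per list at 48h (called on both scales, mean of at least 1 TPM), the 3 most similar genes per member, and genes in or contacting member baits. Those in the contacts and myeloid text outside this rule were chosen after their values were seen. The members and lists were chosen with earlier results of these data known. Hi-C matrices were not used here.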

Additional observations from a re-analysis of the deposited data

How the results depend on the processing

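Over all alternatives (pseudocount, filter, scaling, trend, the libraries fitted, the replicate block and thresholds) Cebpb and Cebpd kept their direction and call at 12h and 48h against 0h. The number of members called at 1h, 3, was 1 after median-of-ratios scaling, 1 with the replicate block and that scaling, and 1 beyond a log2 fold change of 2. At 48h, 4 became 2 with only the 2 time points compared and 2 beyond 2, and 2 to 4 when 1 replicate was left out. Between 1h and 12h, 4 became 2 after scaling and 1 beyond 2, and 1 to 3 without 1 replicate. Between 12h and 48h, 1 became 0 with the 2 time points alone and 0 beyond 1 or 2, and 0 to 2 without 1 replicate. Signs turned only for values with no call: Ddit3 at 1h (-0.17 scaled, -0.17 scaled with the replicate block, -0.0025 rescaled without the 20 most abundant genes), Cebpg at 12h (-0.049 scaled, also with the block), Ddit3 between 1h and 12h (0.30 scaled, 0.30 with the block, 0.26 rescaled, and -0.20 to 0.12 without 1 replicate), Cebpb between 12h and 48h (0.66 scaled, 0.66 with the block, 0.46 rescaled, and -0.50 to 0.13 without 1 replicate), and Cebpd between 12h and 48h (-0.059 to 0.41 without 1 replicate, negative without 48h replicate 3). The cause was not tested. The main model had no replicate term, yet libraries of the same number were partly alike. Of 18 same-numbered pairs, 7 had a correlation over 0.1 (from -0.012 to 0.26), and 5 of the 7 were among the 6 pairs of replicate 3. Of 12 libraries, 7 correlated best with their own number. Replicate 3 also had the lowest share of the ribosomal RNA locus at each time point (76.9%, 70.3%, 72.8% and 75.7% in order of time). On the deposited scale the block changed no count of calls. On the scaled values it gave 3 calls in place of 2 at 12h, 4 in place of 3 at 48h and 4 in place of 2 between 1h and 12h. With the block, Cebpa was called lower on both scales at 48h (adjusted p = 0.00669 and 0.0234, limma) and between 1h and 12h (0.0169 and 0.0366), as was Cebpg between 1h and 12h (0.0223 and 0.0313). Of the contacts, the 18 of Cebpb at 0h became 3 and the 10 of Ddit3 became 1 at a score of at least 10, and those of Ddit3 became 17, 29, 19 and 9 over its whole gene body. Contact numbers have no replicates, and depth was not used.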
